A study of Rattus norvegicus with 12 samples.

Results

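The mRNAs of the cytosolic ribosomal proteins were taken by gene name from an array study of rat hippocampus. A probe set was a member if its single gene symbol began with Rpl or Rps followed by a digit, an a or a p, without the Rps6k kinases. This gave 50 of 12783 probe sets with a single symbol, for 44 of 10411 genes, and 33 of them belong to the large and 17 to the small subunit. Of these, 43 probe sets for 40 genes, 29 large and 14 small, had a mean of at least 4 on the log2 scale over all arrays and were tested. The other 7 lay between 2.01 and 3.96, and they include the only probe sets of Rps27l, Rpl30, Rpl3l and Rps4y2. A further 34 probe sets carry several symbols of ribosomal proteins and their copies. They name no gene here and are given only as a group.

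The cytosolic ribosome is built from ribosomal RNA and ribosomal proteins, named Rpl in the large subunit and Rps in the small one. The small subunit holds the messenger RNA and reads its codons, and the large subunit joins the amino acids and passes the new chain through its exit tunnel. The mRNAs of these proteins are abundant in every cell, and most begin with a terminal oligopyrimidine tract, a run of C and T letters through which the mTOR pathway controls their translation. Ribosomes are present in dendrites as well as cell bodies of neurons, and protein synthesis after training is needed for lasting memory.

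RNA came from the microdissected CA1 region of the hippocampus of male Long-Evans rats, 3 to 4 months old, on 12 Affymetrix RAE230A arrays that the labels call biological replicates. All the rats had earlier been trained in a standard water maze and, 2 to 3 weeks later, had 1 session of 8 trials with 8 minutes between them in an unfamiliar maze elsewhere. In the spatial learning group (6 arrays) orienting cues were present and the visible platform stayed in place. In the control task group (6 arrays) the visible platform moved between trials and there were no informative cues. After a pause of 1 hour every rat had a 90-second probe trial with no platform, and was killed directly after it. The comparison asks which transcripts differ when the same number of trials allows a place to be learned.

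The start sites of member genes are shown because the pyrimidine tract is what most of these mRNAs share besides their product. RefSeq promoter entries on the GRCr8 assembly were found for 39 of the 44 genes. Each window runs 5′ to 3′ on the gene's own strand, from 15 bases before the annotated start through the first 15 bases of the gene. Capitals mark the longest run of at least 6 letters that are all C or T, and Rpl18 is included as a member without one.

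Rps15: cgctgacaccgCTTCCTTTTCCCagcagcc
Rps3: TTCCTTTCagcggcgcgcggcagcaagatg
Rps3a: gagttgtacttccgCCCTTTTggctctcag
Rps24: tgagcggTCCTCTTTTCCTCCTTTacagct
Rpl35a: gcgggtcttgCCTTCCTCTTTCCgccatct
Rpl39: tcttctaatcgcgTTCTTCCggcctgtcct
Rplp0: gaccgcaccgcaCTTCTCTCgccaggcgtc
Rpl13a: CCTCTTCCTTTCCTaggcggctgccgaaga
Rps6: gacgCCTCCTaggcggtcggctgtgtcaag
Rpl18: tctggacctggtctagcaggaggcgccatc

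These windows lie at chr7:10068101-10068130 (minus strand) for Rps15, chr1:163195762-163195791 (minus) for Rps3, chr2:173827028-173827057 (minus) for Rps3a, chr16:96502-96531 (plus) for Rps24 and chr11:81235007-81235036 (minus) for Rpl35a. Those of the other genes are chrX:121195882-121195911 (minus) for Rpl39, chr12:46718376-46718405 (minus) for Rplp0, chr1:104748899-104748928 (minus) for Rpl13a, chr5:106420526-106420555 (minus) for Rps6 and chr1:105325255-105325284 (plus) for Rpl18. In Rps15, Rps3a, Rps24, Rpl35a, Rpl39 and Rplp0 the run spans the annotated start, whereas in Rps3, Rpl13a and Rps6 it ends before it. A run of this kind was present in 30 of the 39 member genes (76.9%) and in 9487 of all 33469 promoter entries (28.3%). Runs of at least 8 letters were present in 23 members (59%) and in 11.4% of all entries. Read on the other strand, where the same search finds runs of A or G, the shares were 12.8% of members and 32.3% of all entries. A match describes the letters at the annotated start and is not evidence of a functional site.

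Of the 43 tested ribosomal protein probe sets with a single symbol, 0 differed between the groups by the test. Their differences were small in either direction. Differences are given as the spatial learning mean less the control task mean, in log2 units. The 43 probe sets ranged from -0.077 for Rpl13a to 0.16 for Rps15, and 41 of them were under 0.1 in size. In the limma fit of all 9610 tested probe sets, Benjamini-Hochberg adjusted, 0 members passed an adjusted p of 0.05, as did 0% of the whole set, and the lowest adjusted p of a member was 0.429. The exact rank-sum test, adjusted the same way, called 0 members, but with 6 arrays per group it could not have called any. Its smallest p is 0.00216, open only to the 61 of 9610 probe sets whose groups did not overlap. At an unadjusted limma p under 0.05 there were 2 members higher and 0 lower, where the shares of all tested probe sets were 6.36% higher and 4.55% lower, and those of probe sets with a mean of at least 10 were 7.88% and 5.85%. The rank-sum test gave 3 higher and 0 lower at that level, and its shares of all tested probe sets were 5.75% and 3.57%. In 41 of the 43 members the 95% interval of the difference included 0, and over all members the intervals reached from -0.24 to 0.30.

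**Figure D1:**
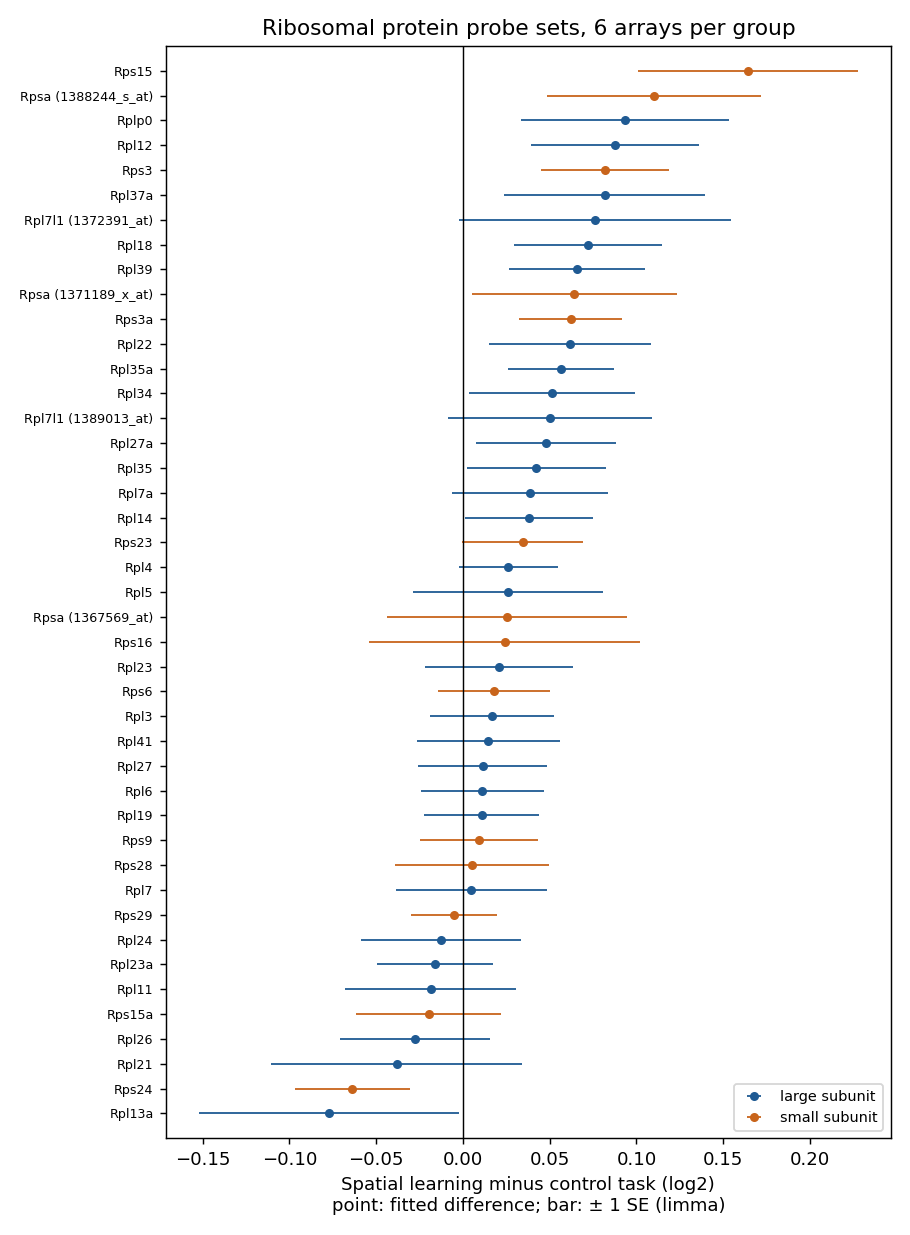
Fitted differences (spatial learning minus control task, log2) of the 43 tested ribosomal protein probe sets, with bars of 1 SE from limma. Blue is the large subunit and orange the small one; 34 points lie above 0 and 9 below, from -0.077 for Rpl13a to 0.16 for Rps15.

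The differences lay more often above 0 than below. Their median was 0.026, with 34 of the 43 members higher and 9 lower, while 53.7% of all tested probe sets were higher and their median was 0.0079. Members are bright, 37 of them with a mean of at least 10, and among the 1231 tested probe sets that bright 52% were higher, with a median of 0.0033. With one probe set a gene the count was 31 of 40. The 34 probe sets with several symbols gave 25 higher and 9 lower with a median of 0.032. Of these 34, 6 higher and 1 lower had an unadjusted limma p under 0.05 and 0 passed adjustment. The shares of all tested probe sets at that level were 6.36% higher and 4.55% lower. Transcripts of one family on the same 12 arrays do not vary independently, so these counts describe the arrays and carry no test.

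Both subunits gave the same picture in these counts. Among 29 large subunit probe sets 23 were higher and 6 lower (median 0.026), and among 14 small subunit probe sets 11 were higher and 3 lower (median 0.025). Per array, the mean deviation of the large minus the small subunit from their 12-array means was 0.0042 ± 0.014 for control task arrays and -0.0042 ± 0.021 for spatial learning arrays (mean ± SD, log2, n = 6 each). The values of the groups overlapped, from -0.0096 to 0.023 and from -0.033 to 0.025. Both members with an unadjusted p under 0.05 encode small subunit proteins.

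Control replicates 3 and 5 were low in most of the family. Averaged over the 43 probe sets, control replicate 3 lay -0.073 and control replicate 5 lay -0.060 from the 12-array mean, while the other 4 control arrays lay between -0.00060 and 0.034. The spatial learning arrays lay between -0.015 and 0.049, with replicates 3 and 5 highest and replicate 2 lowest. Group means were -0.015 ± 0.042 and 0.015 ± 0.026 (mean ± SD, n = 6 each). The distance between the groups was smaller than the SD among the control arrays and larger than that among the spatial learning arrays. Only 6 of 43 probe sets were above their own mean in control replicate 3 and 8 in control replicate 5, against 23 to 34 in the other control arrays and 13 to 32 in the spatial learning arrays. Over all tested probe sets that share was 45.0% to 54.2% in every array.

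**Figure D2:**
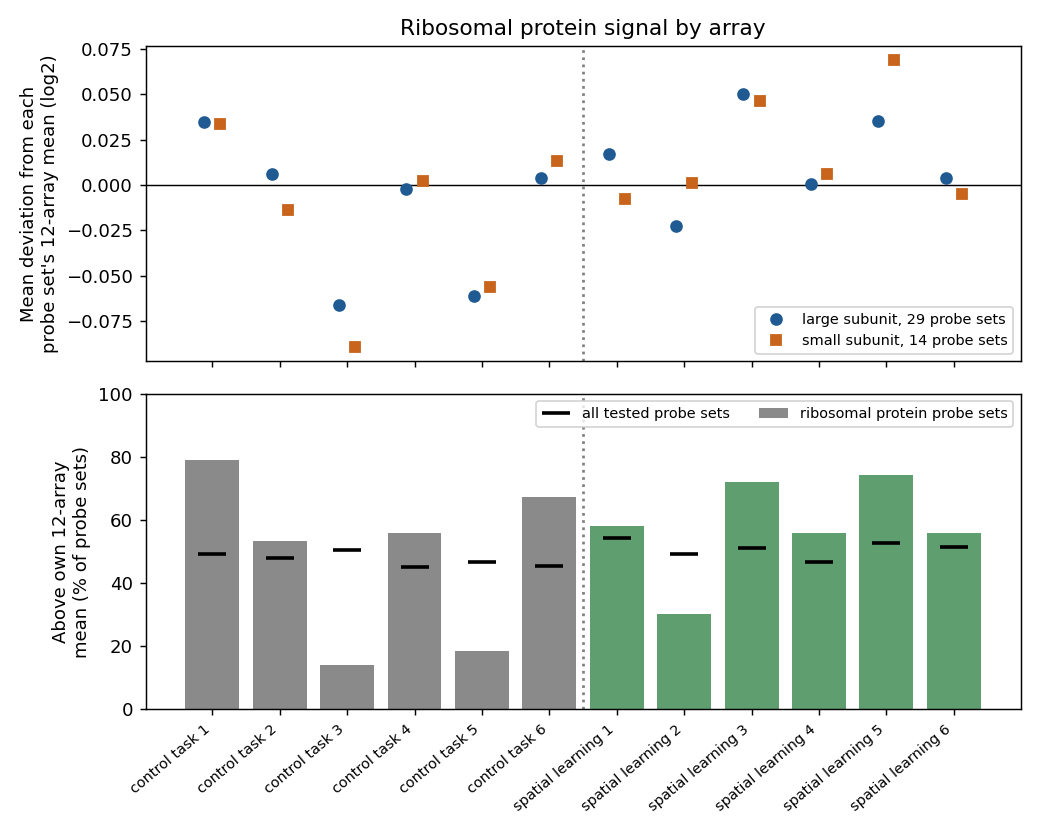
Upper panel: mean deviation of large (circles) and small (squares) subunit probe sets from their 12-array means, by array, on the log2 scale. Lower panel: percent of the 43 ribosomal protein probe sets above their own 12-array mean in the control task (grey bars) and spatial learning (green bars) arrays, with black marks for all tested probe sets; control replicates 3 and 5 stand lowest, with 6 and 8 of 43.

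Leaving out control replicate 5 brought the family's median from 0.026 to 0.012 with 27 of 43 higher, and leaving out control replicate 3 brought it to 0.020 with 29 of 43. Without spatial learning replicate 5 it was 0.012, and without replicate 2 of that group 0.040. Weighting the arrays by their quality in limma gave 0.015 with 32 of 43 higher. Spatial learning replicate 5 was the highest of all 12 arrays in 17 of the 43 members and the lowest in 6. Over all tested probe sets it was highest in 15.4% and lowest in 14.4%.

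Proteins of the small subunit's mRNA channel and decoding region come first, since both members with an unadjusted p under 0.05 are among them. Rps15, a protein of the small subunit's head near the decoding site, was at 11.74, 11.86 and 12.12 in the control task arrays (lowest, median and highest) and at 11.93, 12.04 and 12.15 in the spatial learning arrays. Control replicates 1 and 6 lay within the range of the spatial learning arrays, and 2 of these lay above every control. Its difference of 0.16 (SE 0.063, n = 6 each), a 1.12-fold ratio, had a limma adjusted p of 0.429 and an unadjusted exact permutation p of 0.0433.

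Rps3, at the mRNA entry channel and also known as a DNA repair endonuclease, ran from 11.56 through a median of 11.69 to 11.74 in controls and from 11.67 through 11.76 to 11.84 after spatial learning. There 4 of the 6 spatial learning arrays lay above all controls, and control replicate 3 was the lowest. The difference was 0.082 (SE 0.037), with a limma adjusted p of 0.447 and an exact permutation p of 0.0368, unadjusted. Rps23, of the decoding centre, and Rps28, near the mRNA exit, differed by 0.034 and 0.0051.

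Rps3a, a small subunit protein on the side facing the solvent, stood at 12.46, 12.50 and 12.60 in controls and 12.52, 12.56 and 12.63 after spatial learning (lowest, median, highest). Only control replicate 1 was above the median of the other group. The difference was 0.062 (SE 0.030) with a limma adjusted p of 0.471 and an exact permutation p of 0.0390, unadjusted.

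Rps24 went the other way. This small subunit protein, one of those mutated in Diamond-Blackfan anaemia, lay between 12.25 and 12.32 in controls, with a median of 12.31, and between 12.14 and 12.34 after spatial learning, with a median of 12.24. Of the spatial learning arrays 3 were below every control and 1, replicate 4, was above every control. The difference of -0.064 (SE 0.033) had a limma adjusted p of 0.503 and an exact permutation p of 0.0628. Its second probe set, too dim to test, averaged 3.33 in both groups.

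Rps6, the substrate of the S6 kinases and the most used readout of mTOR activity, differed by 0.018 with a 95% interval from -0.052 to 0.087, and its control values of 11.58 to 11.73 overlapped those after spatial learning, 11.61 to 11.74. The array measures its mRNA and not its phosphorylation. Rps9, Rps16, Rps15a and Rps29 differed by 0.0094, 0.024, -0.020 and -0.0051. Rpsa, also known as the laminin receptor precursor, has 3 tested probe sets, which gave 0.11, 0.064 and 0.026, so its size depended on the probe set though all were above 0.

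**Figure D3:**
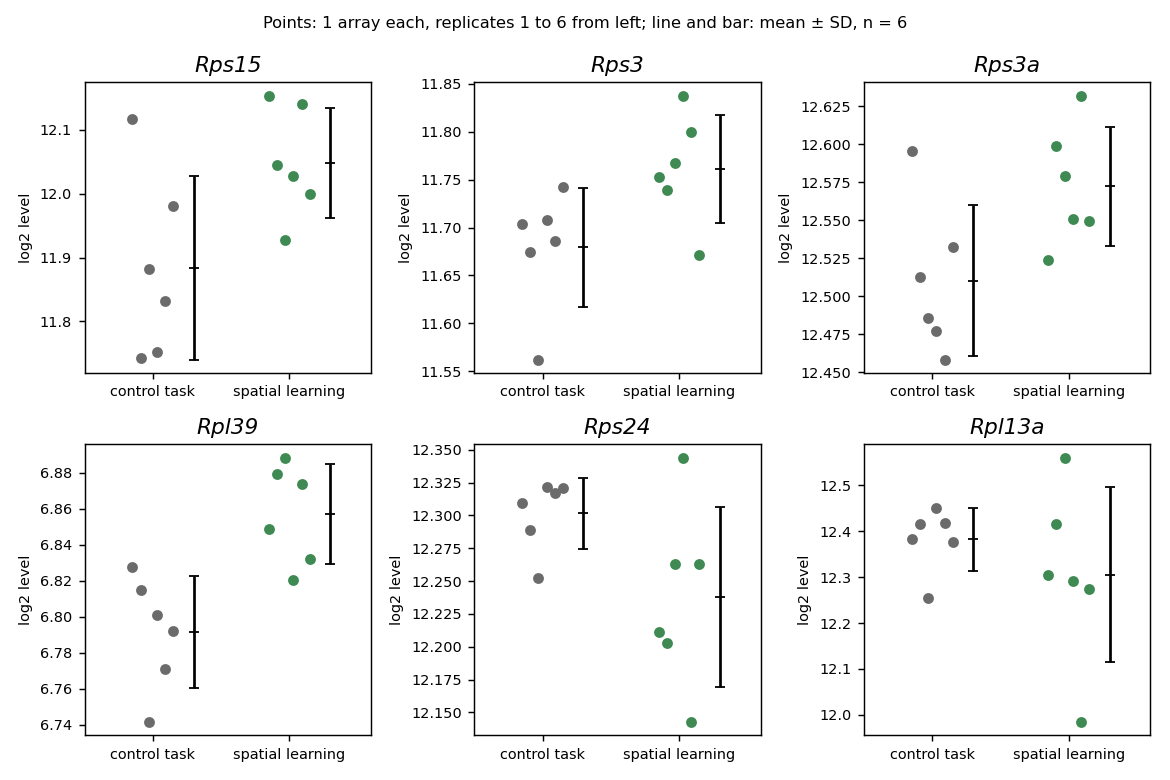
Log2 levels of 6 ribosomal protein transcripts in each array (points, replicates 1 to 6 from left), with mean ± SD beside them (n = 6 per group); each panel has its own axis, which does not start at 0. Rps15, Rps3, Rps3a and Rpl39 have the higher mean after spatial learning and Rps24 and Rpl13a the lower, and the groups overlap in every panel.

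In the large subunit, Rpl39 had the cleanest separation relative to its spread. This short protein lines the peptide exit tunnel. Its probe set stood at 6.74, 6.80 and 6.83 in controls (lowest, median, highest) and 6.82, 6.86 and 6.89 after spatial learning, with 5 of 6 spatial learning arrays above all controls. Its unadjusted exact permutation p of 0.00433 was the lowest of the 43 members. By that test 4 members were higher and 0 lower at a p under 0.05, where the shares of all tested probe sets were 7.03% higher and 4.28% lower. The difference was 0.066 with a limma SE of 0.039 (adjusted p = 0.558), because limma weighs its small within-group SD of 0.029 against the larger spread of other probe sets at that level. Groups without any overlap occurred in 0 members and in 0.635% of all tested probe sets (0.364% higher and 0.271% lower).

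The stalk that recruits elongation factors is built from the P proteins on a base to which Rpl12 belongs. Rplp0, its central protein, ran from 11.36 to 11.64 in controls and from 11.45 to 11.79 after spatial learning (medians 11.52 and 11.61), a difference of 0.093 (SE 0.060, limma adjusted p = 0.596). Rpl12 ran from 11.43 to 11.54 and from 11.43 to 11.73 (medians 11.48 and 11.56), with 4 spatial learning arrays above all controls and a difference of 0.087 (SE 0.048, limma adjusted p = 0.533). Both overlapped, and these are the only tested members of the stalk.

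Around the exit tunnel 5 of 7 members were higher, with a median of 0.026 and 0 past the test. Besides Rpl39 they were Rpl22, an RNA-binding protein that is dispensable for translation, at 0.062, Rpl35 at 0.042, Rpl4 at 0.026 and Rpl19 at 0.011, against Rpl26 at -0.028 and Rpl23a at -0.016. Rpl26 was even in controls, from 12.93 to 12.97, and spread from 12.78 to 13.10 after spatial learning. Rpl5 and Rpl11, which carry the 5S ribosomal RNA and bind Mdm2 when ribosome assembly fails, differed by 0.026 and -0.019.

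The remaining large subunit members with the smallest p were Rpl35a at 0.057 (SE 0.031), Rpl18 at 0.072 (SE 0.043) and Rpl37a at 0.082 (SE 0.058), with limma adjusted p from 0.523 to 0.636. Rpl35a lay between 11.36 and 11.51 in controls and between 11.46 and 11.51 after spatial learning, so its groups overlapped and only 1 spatial learning array exceeded all controls. Then came Rpl27a at 0.048, Rpl34 at 0.051 and Rpl14 at 0.038. Rpl7a, Rpl23, Rpl3, Rpl41, Rpl27, Rpl6 and Rpl7 lay between 0.0049 and 0.039. The lower ones, besides those named, were Rpl21 at -0.038 and Rpl24 at -0.013. Rpl7l1, a paralog of Rpl7 that works in ribosome assembly, gave 0.076 and 0.050 on its 2 probe sets.

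Several of these transcripts serve as reference genes in quantitative PCR, and the 6 tested here had a median of 0.011, with 4 above and 2 below 0. They differed in how steady they were. Rps29 varied least, with a within-group SD of 0.035 and a difference of -0.0051 (95% interval -0.059 to 0.049). Rpl19 had an SD of 0.053 at a difference of 0.011, and Rpl27 an SD of 0.062 at 0.012. Rplp0, of the stalk, had the largest difference of the 6, 0.093, with an SD of 0.11. Rpl13a, also a translational silencer in inflammation, was the least steady large subunit member. It lay between 12.25 and 12.45 in controls (median 12.40) and between 11.98 and 12.56 after spatial learning (median 12.30), where replicate 5 was lowest and replicate 3 highest. Its difference was -0.077 (SE 0.075, limma adjusted p = 0.742), and Rps16 was as variable, with an SD of 0.15. Over the 43 members the median within-group SD was 0.075, against 0.12 over all tested probe sets and 0.090 over those with a mean of at least 10.

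The tested genes were also described by their start-site sequence. A run counted anywhere in the window, also before the annotated start as in Rps3, Rpl13a and Rps6. The split is therefore not one of mRNAs with and without the tract. Among those with an entry, the 28 with a C or T run had a median difference of 0.036, with 23 higher, and the 8 without one had a median of 0.016, with 6 higher. Their ranges overlapped, from -0.077 to 0.16 and from -0.028 to 0.072, and the difference between them was not tested.

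Genes around the cytosolic ribosome gave no call either. Mitochondrial ribosomal proteins, which build the separate ribosome of that organelle, were higher in 55 of 71 genes with a median of 0.058. Of these, 8 higher and 1 lower had an unadjusted limma p under 0.05 and 0 passed adjustment. Among all tested probe sets 53.7% were higher, and at that level 6.36% were higher and 4.55% lower. Mrps16 was at 7.59 ± 0.077 in controls and 7.78 ± 0.14 after spatial learning (mean ± SD, n = 6 each, limma adjusted p = 0.420), and Mrpl23 differed by 0.098.

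Ribosome biogenesis genes were higher in 23 of 38 (60.5%, median 0.026), where 53.7% of all tested probe sets were higher. At an unadjusted limma p under 0.05, 3 were higher and 1 lower, against 6.36% and 4.55% of all tested probe sets. The list was led by Fbl, the fibrillarin that methylates ribosomal RNA, at 0.16 and Tcof1, a nucleolar factor of ribosomal RNA transcription, at -0.18. The mean level of Tcof1 was 4.18, close to the filter of 4. Other mRNAs with a terminal oligopyrimidine tract, most of which encode elongation or initiation factors, were higher in 8 of 13 (61.5%, median 0.016). That too stands beside 53.7% of all tested probe sets, and 0 of the 13 had an unadjusted limma p under 0.05. Among these Eif3h and Eif3l, of initiation factor complex eIF3, were at 0.11 and 0.13, Eef1a1 at 0.016 and Eef2, the translocation factor, at -0.086. The list also holds Nap1l1, a histone chaperone, at -0.022, Hnrnpa1, an RNA-binding protein, at -0.034 and Naca, of the nascent chain complex, at -0.0075.

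S6 kinases and mTOR pathway genes were higher in 11 of 16 (68.75%, median 0.021), where 53.7% of all tested probe sets were higher. At an unadjusted limma p under 0.05, 2 were higher and 0 lower, against 6.36% and 4.55% of all tested probe sets. Rheb, the GTPase that activates mTOR, was at 0.088, Pdpk1 at 0.089 and Rps6kb1, the S6 kinase itself, at 0.023. Rack1, a small subunit component outside the name rule, differed by 0.013. In all of these lists 0 genes passed adjustment.

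**Figure D4:**
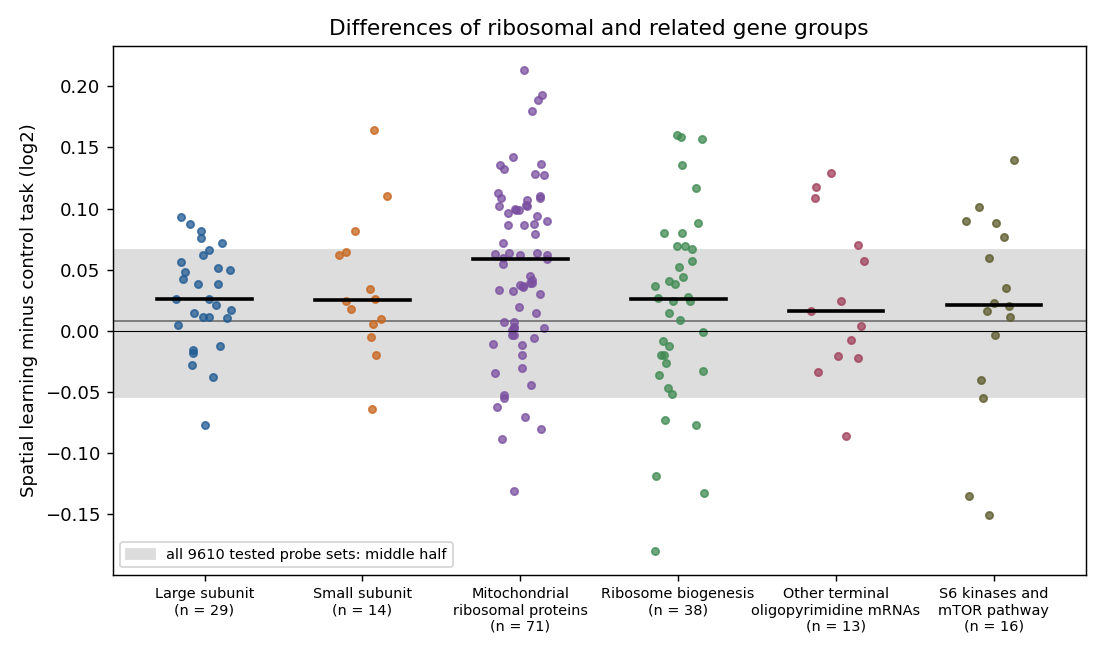
Differences (spatial learning minus control task, log2) of single genes or probe sets in 6 groups, with thick lines at the medians; the grey band is the interquartile range of all 9610 tested probe sets and the grey line their median of 0.0079. The subunits have medians of 0.026 and 0.025 and the mitochondrial ribosomal proteins 0.058.

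Other measures moved with the groups on these arrays. The gap between the 3′ and 5′ signals of the hexokinase control, a measure of RNA integrity, averaged 1.48 ± 0.079 on control task arrays and 1.65 ± 0.11 on spatial learning arrays (n = 6 each, exact permutation p = 0.00433, and 0.0260 when adjusted over 6 control measures). The same gap of beta-actin averaged 1.83 and 1.93 (exact permutation p = 0.0779), and that of Gapdh 0.370 and 0.369 (exact permutation p = 0.998), both unadjusted. Spiked-in labelling controls averaged 3.04 on control task and 3.10 on spatial learning arrays (exact permutation p = 0.0455, and 0.136 adjusted). Hybridisation spikes averaged 9.75 and 9.88 (exact permutation p = 0.106, unadjusted). With the hexokinase gap as a covariate the family's median was 0.036 and 30 of 43 members were higher. The gap ran from 1.35204 to 1.5534 in controls and from 1.55297 to 1.81766 after spatial learning. The groups hardly overlapped in it, so that fit can hardly tell the gap from the group. CA1 pyramidal markers were above the level of 4 in all 8 genes with a probe set, and 7 were higher after spatial learning (median 0.14). Of the 8, 3 higher and 0 lower had an unadjusted limma p under 0.05. Among all tested probe sets 53.7% were higher, and at that level 6.36% were higher and 4.55% lower. Summed levels of the CA1 markers were 83.6 to 85.7 in controls and 84.1 to 86.5 after spatial learning. Marker genes were lower in 9 of 11 cases for astrocytes (summed 118.0 to 119.3 against 116.9 to 118.8), 8 of 10 for oligodendrocytes (100.1 to 104.4 against 100.6 to 104.4) and 8 of 10 for microglia (72.1 to 76.8 against 71.8 to 75.3). At an unadjusted limma p under 0.05, the higher and lower counts were 0 and 1, 1 and 0, and 0 and 1 in this order. Dentate granule markers were lower in all 4 tested genes (median -0.23), 1 of them with an unadjusted limma p under 0.05. CA3 markers were higher in 3 of 4, interneuron markers in 5 of 9, those of endothelium and mural cells in 4 of 8 and those of blood in 1 of 2. At that level their higher and lower counts were 1 and 1, 1 and 0, 0 and 0, and 0 and 1 in this order. In all marker lists 0 genes passed adjustment. Of 7 choroid plexus genes Folr1, F5, Kl and Otx2 were below the level of 4. Of the 3 tested, 1 was higher and 2 were lower, 1 of the lower with an unadjusted limma p under 0.05. Their summed levels ran from 17.8 to 28.5 in controls and from 17.1 to 18.1 after spatial learning. Among them Ttr was at 7.56 ± 3.27 and 4.23 ± 0.29 (mean ± SD, n = 6 each, limma adjusted p = 0.423). Meningeal markers were higher in 2 of 6, 0 of the 6 with an unadjusted limma p under 0.05. Their sums ran from 38.1 to 47.7 and from 37.8 to 46.2. Without control replicates 3 and 6 and spatial learning replicate 6, which led one or both of those lists, the family's median was 0.023 with 31 of 43 higher and 0 past the test. Ribosomal proteins are made by all these cells, and in a tissue sample fewer cells of a type and less RNA per cell cannot be told apart. The part of cell makeup in the results was not tested.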

How the data were processed

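The deposited values are log2 probe set summaries for 12 arrays; the submitters' processing notes name GCRMA, with its version and settings not given in the sources used here. The log2 scale was read from the range, 0.134 to 14.8. GCRMA equalises array distributions, so a change in total RNA or in all transcripts at once cannot be seen. Levels of different probe sets were not compared as amounts of RNA. They were used in filters on the mean level, in the choice of a gene's brightest probe set and in summed marker levels. Depth has no meaning for arrays: 6 per group limit the precision, and p-values measure the spread between these arrays, which the labels call biological replicates. The sources used here give no scan date or batch.

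Groups and replicate numbers came from the sample titles. Symbols came from the platform annotation, which can be old, and several symbols on a probe set named no gene. After removal of 57 controls, 9610 of 15866 probe sets with a mean of at least 4 entered 1 linear model per probe set in limma 3.58.1 (R 4.3.3) on group alone, moderated by eBayes with a trend in intensity. Its 2-sided p-values were Benjamini-Hochberg adjusted over all of them, with a threshold of 0.05. Members were read from that fit. Exact permutation tests were 2-sided over the 924 splits of the arrays, with a smallest p of 0.00216. Genes in lists entered through their brightest probe set. On simulated data for this comparison with 9604 probe sets, 80.6% of changes of 0.5 and 99% of changes of 1 were recovered; most differences here are far smaller.

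The members and lists were chosen with earlier results of these data known. Named were members with an unadjusted p under 0.05, the 10 with the smallest p in each direction, members by role, and the 2 genes of each list with the smallest p. Beyond this rule, Eef1a1, Eef2, Nap1l1, Hnrnpa1, Naca, Rps6kb1 and the remaining members were named after their values were seen. Alternatives were other level filters, variance priors, array weights, centring, quantile normalization, a replicate block, the rank-sum test, the hexokinase gap, narrower and wider member definitions, and leaving out arrays.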

Additional observations from a re-analysis of the deposited data

Results flagged for a closer look

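Of 102 groups of 6 arrays examined, 5 held an array far from the others by Dixon's criterion at 95% for 6 values, and chance flags about 5% of groups. Control task replicate 3 was low in Rpl35, at 11.64 against 11.78 for the next array, and in the Rpsa probe set whose difference was 0.026, at 10.03 against 10.19. Spatial learning replicate 5 was low in the Rpsa probe set whose difference was 0.064, at 8.31 against 8.52, and in the Gapdh 3′ to 5′ gap, at 0.210 against 0.371. Spatial learning replicate 1 was high in Rpl24, at 11.64 against 11.50.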

How the results depend on the processing

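In every alternative fit 0 ribosomal protein probe sets passed an adjusted p of 0.05, though the rank-sum test could not have called any. The lowest adjusted p of a member over all fits was 0.329. Over all tested probe sets, 3 passed with array weights, 5 without the 3 arrays highest in choroid plexus or meningeal transcripts, and 0 to 3 when single arrays were left out. The count of members higher at an unadjusted p under 0.05, 2 as reported, was 1 with eBayes without a trend, with median centring, with the replicate block and with the hexokinase gap as a covariate. It ranged from 0 to 4 when single arrays were left out (4 without control replicate 1, 0 without control replicate 2, and 1 without control replicate 3, spatial learning replicate 1 or spatial learning replicate 4), and the lower count from 0 to 1. With the probe sets of several symbols added, an alternative chosen after seeing the data, 59 of 77 were higher, 8 higher and 1 lower at that level. All tested probe sets gave 53.7% higher in the main fit, with 6.36% higher and 4.55% lower at that level. The median stayed above 0 in all fits, and leaving out single arrays gave 0.012 to 0.040 for the family, 0.012 to 0.040 for the large and 0.0060 to 0.045 for the small subunit, with 27 to 36 members higher. Array weights gave 0.015, 0.015 and 0.012 for these medians, and the hexokinase gap as a covariate 0.036, 0.033 and 0.047.

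Of the 43 members, 22 kept their sign in every fit. The fit with the hexokinase gap as a covariate is poorly determined, because the groups hardly overlapped in that gap. With the hexokinase gap as a covariate the sign changed for Rpl7l1 (-0.095, the probe set otherwise at 0.076), Rps6 (-0.0070), Rpl23a (0.00092), Rpl11 (0.023), Rpl41 (-0.019), Rpl6 (-0.020), Rpl27 (-0.011), Rps9 (-0.00060), Rpl24 (0.018) and Rps28 (-0.016). It changed with array weights for Rpl19 (-0.00102) and Rps16 (-0.00285), with quantile normalization for Rps29 (0.000853) and Rpl7 (-0.00462), and without the 3 arrays for Rps9 (-0.013), Rps28 (-0.021) and Rpl7 (-0.00451). Leaving out single arrays moved the sign of Rpl26 (-0.0631 to 0.00064), Rpl21 (-0.0893 to 0.0118), Rpl23 (-0.00738 to 0.039), Rpl23a (-0.0286 to 0.00278), Rpl5 (-0.00914 to 0.0511), Rps15a (-0.0493 to 0.00949), Rpl3 (-0.00263 to 0.0318), Rpl11 (-0.0472 to 0.00983), Rpsa (-0.0256 to 0.0558), Rpl41 (-0.00823 to 0.0399), Rpl19 (-0.00696 to 0.0235), Rpl6 (-0.0111 to 0.0275), Rpl27 (-0.0123 to 0.0322), Rps16 (-0.0304 to 0.0766), Rps9 (-0.00838 to 0.0233), Rpl24 (-0.040 to 0.0155), Rps29 (-0.0183 to 0.00602), Rps28 (-0.028 to 0.0224) and Rpl7 (-0.0166 to 0.0266). The causes were not tested. The hexokinase gap differed by 0.14 to 0.19, the beta-actin gap by 0.067 to 0.12 and the Gapdh gap by -0.016 to 0.032 when single arrays were left out.

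The replicate numbers did not pair the arrays. Correlations of same-numbered arrays' deviations lay between -0.171 and 0.0821, and 1 of 6 control arrays correlated best with its own number. The replicate block left the family's median at 0.026.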

Other observations

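The control probe set for 5S ribosomal RNA, the RNA that Rpl5 and Rpl11 carry, stood at 1.17 in both groups (SD 0.0036 and 0.0026, n = 6 each, exact permutation p = 0.126), near the bottom of the array's scale, so it gives no usable level.

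Rpl39 and Rps15 differ in which test ranks them first. By the exact permutation test Rpl39 had the smallest p of the members, 0.00433, and Rps15 had 0.0433, while limma gave 0.116 and 0.0218, all unadjusted.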
